A study of Caenorhabditis elegans with 2 samples.

Results

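The genes described here are the cytosolic translation initiation and elongation factors of Caenorhabditis elegans that the deposited table names as such. They were chosen by symbol alone, as rows whose symbol begins with eif, ife, ifg, iff, iftb, eef or eft followed by a hyphen and a number, and 28 of 19487 genes matched. RNA came from mixed-stage embryos of the strain BW1943, which carries gad-1(ct226) and dpy-11(e224) on chromosome V, and embryos were collected by bleaching from cultures at 25 °C or at 16 °C. Each temperature has 1 stranded mRNA library and no replicates. Both libraries carry both mutations and there is no strain with normal gad-1, so temperature and genotype cannot be told apart. The labels do not say how long the cultures were at either temperature.

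Translation begins when the eIF4E protein binds the cap of an mRNA, eIF4G bridges it to the small ribosomal subunit through eIF3, and eIF2 delivers the initiator tRNA, while eIF1 and eIF1A guard the choice of start codon. During elongation eEF1A brings each aminoacyl-tRNA to the ribosome, the eEF1B subunits reload eEF1A with GTP, eEF2 moves the ribosome along, and eIF5A helps at stalling sequences. In embryos these proteins are needed in every cell, and several have a second gene used mainly in the germ line or the soma. Nematode mRNAs add a special case, since many carry a trimethylated cap gained by trans-splicing of a leader RNA, and some of the worm's eIF4E proteins bind that cap.

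Sequencing at 25 °C gave 449772 intron reads beside 17725845 in exons, and at 16 °C 314675 beside 21702143. All 15 embryonic fate and maternal genes had exon reads in both libraries. They were not level, since 10 of 15 lay below 0 in the exon log2 difference and 5 were at least 2-fold lower at 25 °C, namely the gut and pharynx regulators elt-2 (-3.10), pha-4 (-2.59), end-3 (-1.75) and end-1, which lay between the values of pha-4 and end-3, and the T-box gene tbx-38 (-1.04). Their summed level was 712 at 25 °C and 826 at 16 °C in RPKM, exon reads per kilobase of exon scaled to the library total. Genes of adult tissues and sperm together had 120 exon reads at 25 °C and 132 at 16 °C. Single genes went both ways, with 4 and 73 reads in vit-1, 56 and 13 in vit-3, and 16 and 0 in vit-4. Of 12 such genes listed 9 were matched, and the msp sperm genes were not among them. Intestine markers summed to 74.0 RPKM at 25 °C and 510 at 16 °C, with 1 of 10 (mtl-2) at 0 at 25 °C, and pharynx markers summed to 17.6 and 239 with none of 8 at 0. Germline markers summed to 394 at 25 °C and 440 at 16 °C. The part of these cell type differences in the results below was not tested, and in whole embryos fewer cells of a type and less RNA per cell cannot be told apart.

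Intron reads of the translation factors made up a larger share of their reads at 25 °C, and in most members the ratio of intron to exon reads was higher. Summed over the 28 genes there were 1145 intron and 220554 exon reads at 25 °C, against 632 intron and 341381 exon reads at 16 °C, so introns gave 0.516% of their reads at 25 °C and 0.185% at 16 °C. The ratio rose in 20 of 28 genes and fell in 0 by a Fisher exact test (two-sided) on each gene's 4 counts, with Benjamini-Hochberg adjustment over the 14972 genes tested. Among all genes tested 28.1% were called higher and 0.614% lower. Calls depend on how many reads a gene has, and 27 of the 28 lay in the top quartile of exon reads, where 59.9% of genes were called higher and 0.641% lower. The members' share, 71.4%, is to be read against that quartile, and so are the counts by role given below. The ratio was by median 2.83-fold higher at 25 °C in the members, 2.09-fold in all genes tested and 2.08-fold in the top quartile. With Bonferroni adjustment, which is stricter, 8 members were called higher, beside 8.83% of all genes. The share of the top quartile was not computed for that adjustment, so this count cannot be read against genes of like depth. At an unadjusted p under 0.05 the exact test marked 25 of 28 members higher and 0 lower, beside 34.4% and 1.28% of all genes tested and 67.6% and 1.04% of the top quartile, and a chi-square test also called 0 lower. This test compares the reads of these libraries and not the temperatures, and all intervals given here are exact 95% intervals that cover counting error only.

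**Figure D1:**
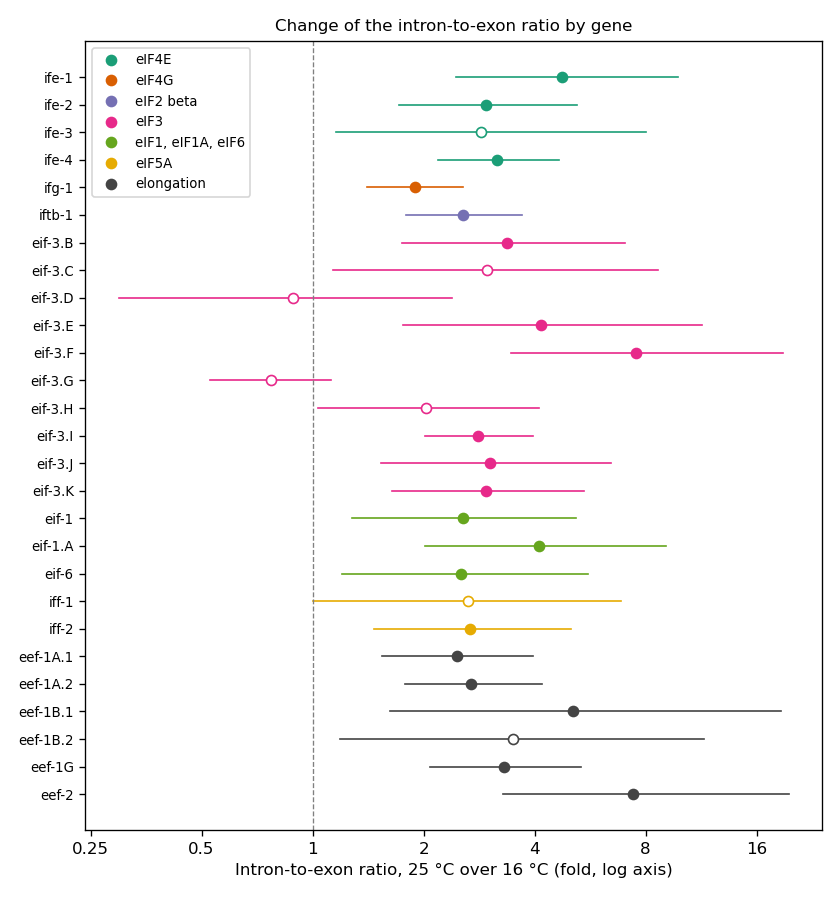
Fold change of the intron-to-exon ratio, 25 °C over 16 °C, on a log axis, with exact 95% intervals, for the 27 genes with intron reads in both libraries. Filled points were called higher and open points were not called, and eif-3.D and eif-3.G are the points left of the dashed line at 1.

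Cap-binding proteins had higher ratios in the 4 genes with enough intron reads to give a fold, and 3 of the 5 were called. That count is near the 59.9% called higher in the top exon quartile. For ife-4, an eIF4E-type protein of nerve and muscle, there were 92 intron reads at 25 °C and 46 at 16 °C, beside 1187 and 1882 exon reads, and the ratio rose 3.17-fold (2.18 to 4.66; exact test, adjusted p = 3.81e-09). The gene ife-1, whose product associates with germ granules and serves germ cell development, had 35 intron reads at 25 °C and 13 at 16 °C with 2031 and 3585 exon reads, a 4.75-fold rise (2.45 to 9.81; exact test, adjusted p = 5.75e-06). An overlapping gene on the same strand, dro-1, touches an ife-1 intron, so the reads of ife-1 are uncertain. The somatic ife-2 had 42 and 22 intron reads at 25 °C and 16 °C with 1613 and 2495 exon reads, and its ratio rose 2.95-fold (1.72 to 5.21; exact test, adjusted p = 0.000238). All of these had more intron reads and fewer exon reads at 25 °C. In contrast ife-3, the member closest to the general eIF4E of other animals, had 1442 exon reads at 25 °C and 1443 at 16 °C. Its 20 and 7 intron reads gave a ratio of 2.86 (1.16 to 8.03) that was not called (exact test, adjusted p = 0.0626). The germline gene ife-5 had 0 intron reads at 25 °C and 2 at 16 °C, under the floor of 3 in both libraries, and no fold is given.

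The scaffold and the eIF2 subunit each rose. ifg-1, the eIF4G protein that joins cap, poly(A)-binding protein and ribosome, had 105 intron reads at 25 °C and 84 at 16 °C with 8528 and 12902 exon reads, and its ratio rose 1.89-fold (1.40 to 2.55; exact test, adjusted p = 0.000166), the smallest rise among the called members. iftb-1, the beta subunit of eIF2, had 79 and 55 intron reads at 25 °C and 16 °C with 3267 and 5835 exon reads, and rose 2.57-fold (1.79 to 3.70; exact test, adjusted p = 1.55e-06). Both genes had fewer exon reads and more library-scaled intron reads at 25 °C.

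The subunits of eIF3, the largest initiation factor, had ratios from 0.772 to 7.55 times those at 16 °C. Of its 10 members 6 rose and 4 were not called, a count near the 59.9% called higher in the top exon quartile. eif-3.F, a subunit with an MPN fold, had 36 intron reads at 25 °C and 8 at 16 °C beside 2644 and 4437 exon reads, and its 7.55-fold rise (3.44 to 18.8; exact test, adjusted p = 7.49e-08) was the largest fold of all members. The gene (D2013.7) lies on chromosome II, from 9331643 to 9333970 on the plus strand of WBcel235, and overlaps no other annotated gene.

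eif-3.E, a PCI-domain subunit, had 26 and 7 intron reads at 25 °C and 16 °C with 3172 and 3552 exon reads and rose 4.16-fold (1.75 to 11.4; exact test, adjusted p = 0.00199). eif-3.B, an RNA-binding scaffold subunit, had 44 and 12 intron reads with 7778 and 7158 exon reads and rose 3.37-fold (1.75 to 7.02; exact test, adjusted p = 0.000546). In these subunits exon reads scaled by library total were also higher at 25 °C, by 1.08-fold (1.03 to 1.14) and 1.32-fold (1.27 to 1.36), so the higher ratio stood on intron reads. The loosely held subunit eif-3.J belongs with them. It had 35 and 12 intron reads at 25 °C and 16 °C and 2083 and 2167 exon reads, and rose 3.03-fold (1.53 to 6.44; exact test, adjusted p = 0.00336). Scaled exon reads of eif-3.G, given below, were also higher at 25 °C, by 1.23-fold, but its ratio was not called.

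The WD-repeat subunit eif-3.I had the most intron reads of all members at 25 °C, 125, against 54 at 16 °C, in the longest summed introns of the group (2647 bases). With 2440 exon reads at 25 °C and 2957 at 16 °C it was level after scaling (interval of the fold 0.947 to 1.05), and the ratio rose 2.81-fold (2.01 to 3.95; exact test, adjusted p = 2.71e-09). eif-3.K, the small subunit whose loss is known to lengthen worm life, had 34 and 20 intron reads at 25 °C and 16 °C with 1054 and 1830 exon reads and rose 2.95-fold (1.64 to 5.44; exact test, adjusted p = 0.00107).

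A pair of subunits had a fold below 1. eif-3.G, an RNA-recognition-motif subunit (F22B5.2, chromosome II, 8442767 to 8444175, plus strand, WBcel235), had 54 intron reads at 25 °C and 69 at 16 °C, with 3279 and 3233 exon reads, and a ratio of 0.772 (0.528 to 1.12; exact test, adjusted p = 0.371). It was already rich in intron reads at 16 °C. Intron reads per kb of intron were 5.58% of exon reads per kb of exon at 25 °C and 7.23% at 16 °C, where the median over the members was 4.83% and 1.78%. Near values at 16 °C were found in ifg-1 (6.54%), eif-3.D (6.48%) and ife-3 (6.39%), whose ratios were 1.89, 0.885 and 2.86. eif-3.D, a subunit that contacts the cap in human cells, had 7 and 13 intron reads at 25 °C and 16 °C with 1774 and 2917 exon reads and a ratio of 0.885 (0.299 to 2.39). The interval of eif-3.G does not reach that of eif-3.F or of eif-3.I, whereas that of eif-3.D, with its few reads, overlaps that of eif-3.I and not that of eif-3.F. These differences between subunits were not tested. The remaining pair, eif-3.C and eif-3.H, had 15 and 24 intron reads at 25 °C against 7 and 16 at 16 °C, beside 3729 and 1393 exon reads at 25 °C against 5170 and 1891 at 16 °C. Their ratios of 2.97 (1.14 to 8.62) and 2.04 (1.03 to 4.12) were not called, with adjusted p of 0.0557 and 0.105 by the exact test.

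The small factors that act at the start codon and at subunit joining rose in 3 of 3. eif-1.A had 32 intron reads at 25 °C and 11 at 16 °C with 6585 and 9322 exon reads and rose 4.12-fold (2.02 to 9.06; exact test, adjusted p = 0.000143), from introns that sum to only 94 bases. eif-1 had 21 and 17 intron reads with 2885 and 5971 exon reads and rose 2.56-fold (1.28 to 5.17; exact test, adjusted p = 0.0201). eif-6, which keeps free large ribosomal subunits from joining too early, had 23 and 12 intron reads with 1509 and 1985 exon reads and rose 2.52-fold (1.20 to 5.58; exact test, adjusted p = 0.0353). Neighbouring protein-coding genes overlap eif-1 and eif-6 on the same strand, so reads of these genes are uncertain.

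The elongation factors rose in 5 of 6. eef-2, the translocase, had 41 intron reads at 25 °C and 7 at 16 °C with 34920 and 44068 exon reads, and its 7.39-fold rise (3.28 to 19.5; exact test, adjusted p = 1.10e-07) came with exon reads that were almost level after scaling, 1.04-fold lower at 25 °C (1.03 to 1.06). eef-1A.2 had 95 and 31 intron reads at 25 °C and 16 °C and rose 2.69-fold (1.78 to 4.18; exact test, adjusted p = 5.48e-06). eef-1A.1 had 42 and 36 intron reads and rose 2.47-fold (1.55 to 3.97; exact test, adjusted p = 0.000605). The eEF1A pair thus had similar folds, although their exon reads differed in direction, as given below.

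Among the subunits of the exchange factor, eef-1G, the gamma subunit, had 54 intron reads at 25 °C and 30 at 16 °C with 6655 and 12232 exon reads and rose 3.31-fold (2.08 to 5.36; exact test, adjusted p = 1.84e-06). A pair of snoRNA genes on the same strand touches its introns, so those intron reads are uncertain. eef-1B.1 had 11 and 5 intron reads with 4642 and 10720 exon reads and rose 5.08-fold (1.63 to 18.7; exact test, adjusted p = 0.00817). eef-1B.2 had 11 and 6 with 2602 and 4969 exon reads, and its ratio of 3.50 (1.19 to 11.5) was not called (exact test, adjusted p = 0.0608).

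The eIF5A genes, which encode the hypusine-bearing factor, had close ratios and unequal depth. iff-2, the somatic gene, had 32 intron reads at 25 °C and 19 at 16 °C with 5266 and 8377 exon reads and rose 2.68-fold (1.47 to 5.01; exact test, adjusted p = 0.00405). A snoRNA gene on the same strand touches an intron of iff-2, and its intron reads are uncertain. iff-1, the germline gene, had 10 and 11 intron reads with 2437 and 7088 exon reads. Its ratio of 2.64 (1.01 to 6.87) was not called (exact test, adjusted p = 0.118), and its unscaled intron reads were nearly equal.

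A higher ratio can come from more intron reads or from fewer exon reads, and both were present. Of the 27 members with at least 10 combined intron reads, 19 had library-scaled intron reads at least 2-fold higher at 25 °C and 0 had them 2-fold lower, where 42.1% and 11.8% of all 8966 such genes were, and 54.8% of those in the top exon quartile passed the same upper mark. Their median log2 difference was 1.19, against 0.79 in all such genes and 1.09 in the top quartile. The interval of the scaled intron ratio lay above 1 in 18 of the 28. In all 20 genes whose ratio rose, scaled intron reads were higher at 25 °C, and exon reads were lower in 16 of the 20. On the log2 scale the intron difference exceeded the exon difference in 18 of the 20. The exceptions were eef-1A.1, with 0.50 for introns and -0.81 for exons, and eif-1, with 0.57 and -0.77. This split depends on the scaling. Scaling by the median exon ratio of all genes, used below, adds 0.27 to both values of each gene. Under it the intron difference is the larger in eef-1A.1 and eif-1 also. Across the 28 genes the Spearman correlation between the exon and the intron difference was 0.40, a description in which both axes share the library totals.

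**Figure D2:**
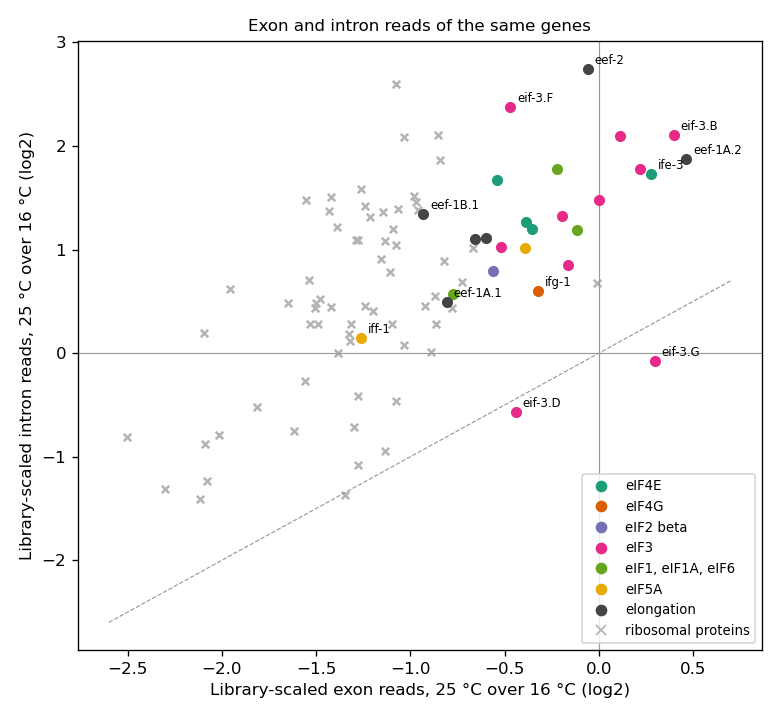
Library-scaled exon reads (horizontal) and intron reads (vertical), each 25 °C over 16 °C on the log2 scale with 0.5 reads added, for the 27 translation factors with at least 10 combined intron reads (coloured by role) and for ribosomal protein genes (crosses). Points above the dashed diagonal have a higher intron-to-exon ratio at 25 °C, and eif-3.D and eif-3.G are the translation factors below it.

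Exon reads scaled by library total, taken as the measure of transcript level, were moderately lower at 25 °C in most members. They lay below 0 on the log2 scale in 21 of 28, with a median of -0.34 and a range from -1.26 to 0.46. Over the 14313 genes that reached 10 exon reads in a library, 67.2% lay below 0 and the median was -0.42, while in the top exon quartile 47.4% lay below 0 with a median of 0.03. Only iff-1 was at least 2-fold lower and 0 members were at least 2-fold higher, where 33.6% and 5.81% of all genes were and 7.96% and 2.38% of the top quartile. No test applies to these differences with 1 library per temperature. Scaling by the median exon ratio of all genes moved each gene up by 0.27, after which 15 of the 28 lay below 0 and 6 members changed sign, namely eif-3.C, eif-3.H, eif-3.I, eif-1.A, eif-6 and eef-2. Under that scaling the median of the members was -0.07, and 0 members were 2-fold lower, iff-1 included. The lower level also depended on membership. In the 15 members that overlap no other gene, the median with library scaling was -0.06, with 9 below 0 and 6 above. Their summed exon reads, 116093 at 25 °C and 133099 at 16 °C, were 1.06-fold higher at 25 °C after scaling. This set keeps eef-1A.2, with 40644 and 35683 of those reads, and leaves out eef-1A.1, which overlaps another gene. The sum without eef-1A.2 was not computed, so its direction may rest on that gene.

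By role, the exon differences were most negative in eIF5A and the elongation factors and near level in eIF3. The log2 median was -0.83 for the eIF5A pair, -0.63 for the 6 elongation factors, -0.35 for the 5 eIF4E genes and -0.08 for the 10 eIF3 genes. Summed exon reads of eIF3 were 29346 at 25 °C and 35312 at 16 °C, which is 1.01-fold after scaling. Within eIF3, subunits stood on both sides. eif-3.B was 1.32-fold higher at 25 °C, eif-3.G 1.23-fold (1.17 to 1.29) and eif-3.J 1.16-fold (1.10 to 1.24), while eif-3.K was 1.43-fold lower (1.33 to 1.55), eif-3.F 1.39-fold lower (1.32 to 1.45) and eif-3.D 1.36-fold lower (1.28 to 1.44). Under the median-ratio scaling these keep their order and their signs.

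**Figure D3:**
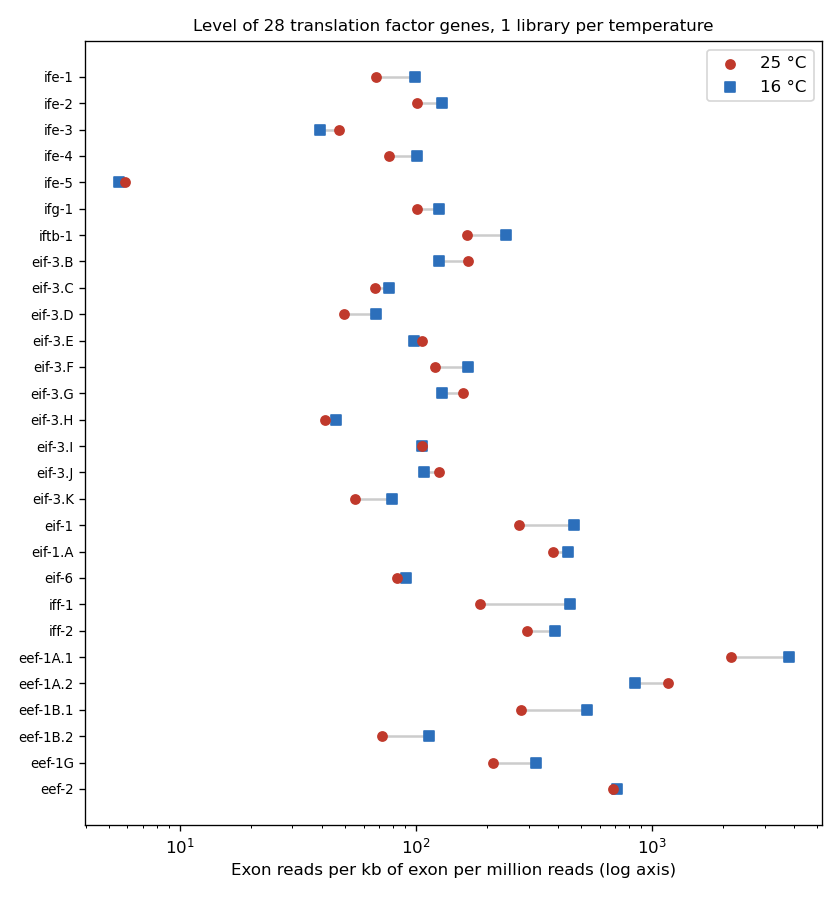
Level of each of the 28 genes in RPKM (exon reads per kilobase of exon, scaled to the library total) on a log axis, at 25 °C (circles) and 16 °C (squares). eef-1A.1 is highest and ife-5 lowest at both temperatures, and iff-1 and eef-1B.1 show wide gaps with the lower value at 25 °C.

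Levels per length, which use the deposited exon lengths, spanned a wide range that kept much the same order at both temperatures. In RPKM, eef-1A.1 stood at 2166 at 25 °C and 3787 at 16 °C, eef-1A.2 at 1165 and 845, and eef-2 at 681 and 710. Next at 25 °C came eif-1.A at 379, iff-2 at 296, eef-1B.1 at 278 and eif-1 at 273. At 16 °C the next were eef-1B.1 at 530, eif-1 at 466, iff-1 at 448 and eif-1.A at 443. The counting intervals of eef-1B.1 and eif-1 overlap at 25 °C, as do those of eif-1, iff-1 and eif-1.A at 16 °C for each neighbouring pair. The gamma subunit eef-1G had 213 and 322, and eef-1B.2 only 72.2 and 114. The eIF3 subunits were more uniform, from 41.1 for eif-3.H to 166 for eif-3.B at 25 °C and from 46.0 for eif-3.H to 166 for eif-3.F at 16 °C. ifg-1 was within the eIF3 range, at 101 and 126, and iftb-1 stood at 164 and 242. The Spearman correlation of levels between the temperatures was 0.95 over the 28 genes, a description in which each gene keeps its length. Together the members took 1.21% of library reads as exon reads at 25 °C and 1.55% at 16 °C, and the elongation factors alone 0.849% and 1.11%.

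Introns of the members were short. Summed intron length had a median of 306 bases in the members, 654 in all genes and 978 in the top exon quartile. In the elongation factors the median was 180 bases. Their intron reads were also few per length, with a median intron density of 1.98% of exon density at 25 °C and 0.563% at 16 °C. Intron density relative to exon density ran at 25 °C from 0.711% in eef-1A.1 to 18.3% in ife-3 among genes with intron reads in both libraries, and at 16 °C from 0.204% in eif-3.F to 7.23% in eif-3.G. Across the 28 genes the change of the ratio had a Spearman correlation of -0.04 with summed intron length, and of -0.45 with intron density at 16 °C, which shares the 16 °C counts with it. Summed intron lengths of the table equalled those of the Ensembl annotation in 19 of the 28, and 13 of the 28 overlap another annotated gene. On the opposite strand these include eif-3.D, eif-3.H, eif-3.K, ife-3, eef-1A.1, eef-1B.1 and iff-1, and their reads are uncertain if strand was not used, while dab-1 overlaps ifg-1 on the same strand.

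The paralogue pairs were not shifted alike. Of the eEF1A genes, eef-1A.1 (F31E3.5, chromosome III, 6970026 to 6971712, minus strand, WBcel235), whose promoter drives transgenes in most worm tissues, had 64845 exon reads at 25 °C and 137341 at 16 °C, 1.75-fold lower after scaling (1.73 to 1.76). eef-1A.2 (R03G5.1, chromosome X, 7823654 to 7825769, plus strand) had 40644 and 35683, 1.38-fold higher (1.36 to 1.40). eef-1A.2 therefore made up 38.5% of the pair's exon reads at 25 °C (38.2 to 38.8), against 20.6% at 16 °C (20.4 to 20.8). Per length, eef-1A.1 stood 1.86 times above eef-1A.2 at 25 °C and 4.48 times at 16 °C. The pair's summed reads were 1.35-fold lower at 25 °C. The proteins of these genes are nearly identical, how reads that fit both genes were counted is not given in the sources used here, and the division between them is uncertain.

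For eIF5A the order of the genes differed between the libraries. iff-1 was 2.40-fold lower at 25 °C (2.29 to 2.52) and iff-2 1.31-fold lower (1.27 to 1.36). Their levels were 186 and 296 RPKM at 25 °C, against 448 and 389 at 16 °C, so iff-2 stood 1.59 times above iff-1 at 25 °C and 0.868 times as high at 16 °C. iff-1 made up 31.6% of the pair's exon reads at 25 °C (30.6 to 32.7) and 45.83% at 16 °C (45.04 to 46.62). A non-coding gene on the opposite strand touches an intron of iff-1, and whether counting used strand is not given. The 12 germline markers, a tissue in which iff-1 is used, had a median exon log2 of -0.21 and 0 of 12 were 2-fold lower, and the lowest of them stood at -0.55, beside -1.26 for iff-1. The part of germ cell number in the iff-1 value was not tested.

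**Figure D4:**
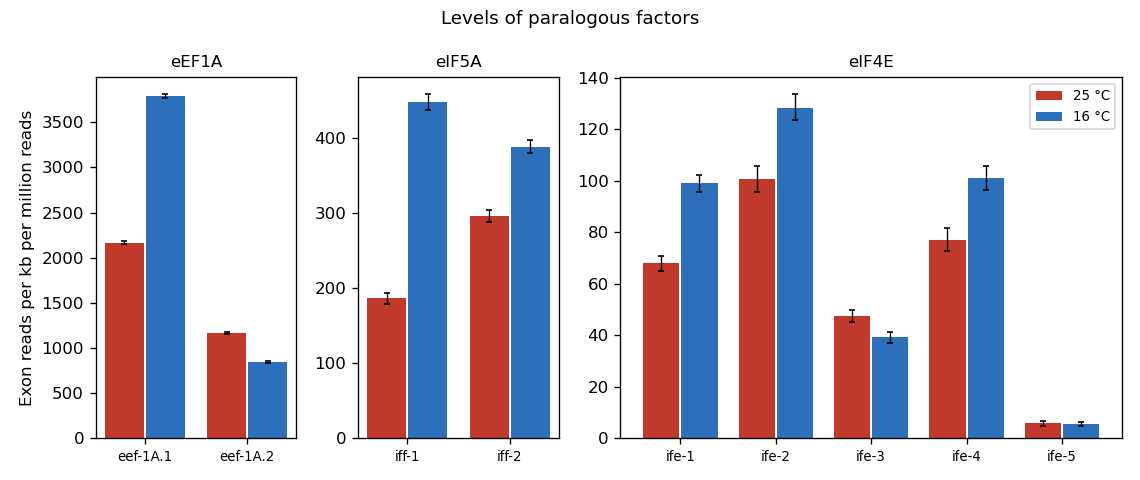
Levels of the eEF1A, eIF5A and eIF4E genes in RPKM, with 25 °C left and 16 °C right for each gene and exact 95% Poisson intervals of counting error. eef-1A.2 and ife-3 stand higher at 25 °C beyond their counting intervals, and the vertical scale differs between the panels.

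With the deposited exon lengths, the eIF4E genes kept their order of level at both temperatures. ife-2 led with 101 RPKM at 25 °C and 128 at 16 °C, then ife-4 with 77.2 and 101, ife-1 with 68.0 and 99.0, ife-3 with 47.5 and 39.2, and ife-5 with 5.87 and 5.52. At 16 °C the counting intervals of ife-4 and ife-1 overlap. The deposited exon lengths exceed those of the Ensembl annotation in ife-1 (1644 and 995 bases), ife-3 (1672 and 1118) and ife-5 (1407 and 850). By the Ensembl lengths ife-1 would stand above ife-2 at both temperatures. By exon reads alone ife-1 had the largest share of the family, 31.6% at 25 °C and 37.4% at 16 °C. The place of ife-1 in the order is uncertain. ife-3 was 1.21-fold higher at 25 °C (1.12 to 1.30), while ife-1 was 1.46-fold lower (1.38 to 1.54), ife-4 1.31-fold (1.22 to 1.41) and ife-2 1.28-fold (1.20 to 1.36). The interval of ife-5 spans 1 (0.848 to 1.33). ife-3 made up 22.5% of the family's exon reads at 25 °C (21.4 to 23.5) and 15.1% at 16 °C (14.4 to 15.8).

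The ratio also rose in most core factors of the pathway that carry other names, in 9 of 11, and fell in 0, with a median log2 of 1.33. Counts called in this list and those below are to be read beside 28.1% of all genes tested and 59.9% of the top exon quartile. erfa-1, the release factor that reads stop codons, had 35 intron reads at 25 °C and 6 at 16 °C and rose 7.61-fold (3.16 to 22.2). inf-1, the eIF4A helicase, had 29 and 12 and rose 4.89-fold (2.41 to 10.5), and pab-2, a poly(A)-binding protein, had 88 and 21 and rose 3.12-fold (1.92 to 5.29). The core factors not called were erfa-3, the GTPase partner of erfa-1, at 1.76 (0.852 to 3.75) and egl-45, the largest eIF3 subunit, at 2.13 (1.07 to 4.52). By median these core factors stood at -0.11 in exon reads (log2). Its eIF4A gene inf-1 was lower in exon reads, with 3874 at 25 °C and 7832 at 16 °C, and egl-45 was higher, with 10326 and 7985.

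A further 11 factors carry an eif symbol in the current gene names and another or no symbol in the deposited table, and were added after the table was seen. They include ppp-1, the gamma subunit of eIF2B, which is also a core factor above. Their ratio rose in 6 of 11 with a median log2 of 1.15, a count that lies between the shares of 28.1% and 59.9% given above. eif-2Bdelta, part of the exchange factor for eIF2, had 82 intron reads at 25 °C and 20 at 16 °C and rose 4.12-fold (2.49 to 7.14). eif-2A had 60 and 17 and rose 3.16-fold (1.82 to 5.79), and eif-2Bepsilon, the catalytic subunit, had 67 and 27 and rose 2.60-fold (1.63 to 4.26). Named for having the folds below 1, eif-3.L had 88 intron reads at 25 °C and 161 at 16 °C (0.954, 0.724 to 1.25), and eif-2alpha, the subunit that stress kinases phosphorylate, had 61 and 80 (0.959, 0.674 to 1.36). In these genes, as in eif-3.G and eif-3.D, unscaled intron reads were fewer at 25 °C.

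Among regulators of translation the ratio rose in 5 of 13 and fell in 0, and the median of the 13 was 1.72-fold higher. That count lies between the 28.1% of all genes tested and the 59.9% of the top exon quartile. In exon reads the 13 stood higher at 25 °C by a median of 0.55 on the log2 scale. larp-1, which binds the leaders of ribosomal protein mRNAs in other animals, had 112 intron reads at 25 °C and 42 at 16 °C and rose 3.38-fold (2.35 to 4.95). mnk-1, the kinase that phosphorylates eIF4E, had 372 and 76 intron reads and 16496 and 8503 exon reads with a 2.52-fold rise (1.96 to 3.28), and was 2.35-fold higher at 25 °C in exon reads. gcn-1, the partner of the eIF2 kinase gcn-2, had 94 and 31 and rose 2.33-fold (1.53 to 3.63). On the same strand a snoRNA gene touches an intron of mnk-1 and 4 miRNA genes touch introns of gcn-1, so those intron reads are uncertain. efk-1, the kinase that inhibits eEF2, had 32 and 25 intron reads and a ratio of 0.997 (0.571 to 1.76). Folds below 1 with more reads were those of rsks-1, the S6 kinase, whose introns held 119 reads at 25 °C against 168 at 16 °C (0.810, 0.633 to 1.03), and of daf-15, the Raptor protein, with 91 and 90 (0.817, 0.602 to 1.11), and neither was called. Whether these regulators differ from the factors was not tested. Mitochondrial translation factors rose in 4 of 4, by a median of 3.51-fold. Among them were tufm-1, the mitochondrial EF-Tu, at 3.71-fold (1.70 to 8.75) and gfm-1, an elongation factor G, at 1.78-fold (1.15 to 2.78). tsfm-1 and tufm-2 had few intron reads, 14 and 8 at 25 °C against 5 and 1 at 16 °C. With at least 20 combined intron reads the median log2 was 1.34, beside 1.81 with all 4 genes.

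The factors differed from ribosomal proteins in how exon and intron reads combined, by description. The 72 ribosomal protein genes tested had a ratio higher by a median of 3.32-fold, beside 2.83-fold in the factors. Their exon reads had a median of -1.28 with 57 of 72 at least 2-fold lower, beside -0.34 and 1 of 28 in the factors. Of all genes 33.6% were 2-fold lower, and of the top exon quartile 7.96%. Under median-ratio scaling the ribosomal median was -1.01, close to the 2-fold mark, so the count of 57 depends on the scaling. Scaled intron reads of the ribosomal protein genes had a median of 0.48, beside 1.19 in the factors. The 32 aminoacyl-tRNA synthetases had a median ratio 2.16-fold higher and log2 medians of -0.02 for exon and 1.08 for intron reads. Of these 17 of 32 rose, which lies between the 28.1% of all genes tested and the 59.9% of the top exon quartile. Among the factors, iff-1, eef-1B.1, eef-1A.1 and eif-1 had the lowest exon values, between -1.26 and -0.77, and lay nearest to the ribosomal protein genes. These differences between gene groups were not tested.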

How the data were processed

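The table deposited by the authors gives raw counts of exon and intron reads per gene for 1 library per temperature, with summed exon and intron lengths. Trimmomatic, TopHat2 and HTSeq are named in the submitters' processing notes, without versions. Not given in the sources used here are the build, the annotation, the use of strand and the treatment of multiply mapped reads. The ratio (fold change) in the authors' deposited table was recomputed from the counts in 10860 of 10860 genes with a finite value above 0, and the deposited p-value equalled a two-sided Fisher exact test within 2% in 19487 genes.

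The marks Exp and Con in the column names, which the labels repeat, tie columns to 25 °C and 16 °C. Genes with at least 10 combined reads were tested by Fisher's exact test, adjusted by Benjamini-Hochberg at 0.05 (SciPy 1.17.1, pandas 2.3.3, NumPy 2.4.6, Python 3.11.15). That test was tested on simulated data. Folds are ratios of raw counts, and medians use log2 with 0.5 reads added. Exon and intron reads were scaled by the library total of both, 18175617 reads at 25 °C and 22016818 at 16 °C, and were described at 2-fold without a test, in genes reaching 10 exon reads in a library or 10 combined intron reads. A fold against a count of 0 needs a floor of 3. Positions and overlaps are from Ensembl release 115 (WBcel235), matched by gene identifier, and may differ from the authors' annotation. PCR reads are not independent molecules, so intervals cover counting error only.

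The members, roles and lists were chosen with earlier results of these data known. Full values were to be given for members with at least 20 combined intron reads, with exon reads 2-fold apart or in the eIF4E, eIF5A and eEF1A groups, and for up to 3 genes with the largest ratio change per pathway list with at least 20 combined intron reads. Genes named beyond that rule (erfa-3, egl-45, eif-3.L, eif-2alpha, efk-1, rsks-1, daf-15) were chosen after their values were seen. Alternatives varied the minimum, the pseudocount, the scaling, the fold, the adjustment, the test and the membership.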

Additional observations from a re-analysis of the deposited data

How the results depend on the processing

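The count of 20 members with a higher ratio was 8 with Bonferroni adjustment and 11 among the 15 members that overlap no other gene, the second being a smaller set by construction. It kept within 1.5 times under the other settings run. Bonferroni, a stricter adjustment, called 8.83% of all genes tested higher. Its counts for the other lists follow, each with the Benjamini-Hochberg count and the genes tested. They were 5, 9 and 11 for core factors, 2, 5 and 13 for regulators, and 0, 4 and 4 for mitochondrial factors. For ribosomal proteins they were 22, 50 and 72, for synthetases 5, 17 and 32, and for factors named by current symbol 2, 6 and 11. With at least 20 combined intron reads, 2 mitochondrial factors were tested and called, and eif-3.C and ife-3 became called. The 1 member with 2-fold lower exon reads became 0 under median-ratio scaling or without overlapping members, and 6 at 1.5-fold. The 19 with 2-fold higher intron reads became 12 without overlapping members, and with no minimum 1 member (ife-5) had 2-fold lower intron reads. Median-ratio scaling raises every value alike. It turned the exon medians to 0.16 for core factors, 0.012 for mitochondrial factors, 0.25 for synthetases and 0.21 for factors named by current symbol, moved those of regulators to 0.82 and of ribosomal proteins to -1.01, and moved the intron median of mitochondrial factors to 1.71. On the TPM scale, which raises every value by 0.29, the log2 level difference reversed to 0.29 for eif-3.I, 0.23 for eef-2, 0.064 for eif-1.A, 0.17 for eif-6, 0.094 for eif-3.C and 0.12 for eif-3.H. The alternatives on overlap, current symbol and eEF1A were chosen after seeing the data. No paired analysis was possible because each temperature has a single library with no number in its label, and none could be left out. Depth limits the members with few intron reads, ife-5, eef-1B.1, eef-1B.2, eif-3.D and iff-1.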
